A study of Homo sapiens with 4 samples.

Results

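Epithelial adhesion and junction genes are the genes that hold the cells of an epithelial sheet together, set up their apical and basal sides and keep them in the epithelial state. Here 41 such genes were followed in LNCaP cells given PC-3 exosomes, by every probe set annotated to exactly 1 gene, that gene being a member. These were 111 of the 49395 probe sets in the table, and they measured 39 of the 41 genes. F11R and CTNND1, which encode the junction protein JAM-A and p120-catenin, had no such probe set and are not analysed here in the comparison. The whole table held 18132 genes measured by a probe set of their own.

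LNCaP is a prostate cancer cell line that responds to androgen, and PC-3 is a prostate cancer line that grows without it. In 2 arrays the LNCaP cells had been treated with PC-3 exosomes, small vesicles that cells release, and in the other 2 they had been given PBS, a buffer. All the cells were grown in RPMI-1640 with 10% fetal bovine serum at 37 °C and 5% CO2, and 100 ng of total RNA went into each labelling reaction. For the PBS cells the sample labels record no agent, and the treatment protocol names PBS. Exosome dose and exposure time are not used here. Nothing in the labels says that replicate arrays were separate cultures, so a p-value measures only the spread between these arrays, which may be technical.

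Epithelial cells adhere through several structures stacked along their sides. Tight junctions, built from claudins and occludin, seal the space between cells near the apical surface. Adherens junctions join E-cadherin to the actin cytoskeleton through catenins, and desmosomes join their own cadherins, the desmogleins and desmocollins, to keratin filaments. Polarity complexes place these structures, and a small set of transcription and splicing factors keeps the epithelial programme on. Loss of E-cadherin and of that programme is a hallmark of the epithelial-to-mesenchymal transition.

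Of the 39 measured members 1 was higher and 2 were lower after PC-3 exosomes in limma's test at an adjusted p under 0.05 over 18132 genes. Over all genes 0.706% were called higher and 0.188% lower. Desmocollin 2 (DSC2) and desmoglein 2 (DSG2), the desmosomal cadherin pair of simple epithelia, fell by 0.29 and by 0.25 on the log2 scale. Claudin 12 (CLDN12) rose 1.24-fold. E-cadherin, EpCAM, occludin, ZO-1 and the remaining 32 members did not pass the test.

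The upstream sequences of the 3 called genes are shown because the members that fell lie in the same gene cluster and the member that rose does not. DSC2 and DSG2 lie in the desmosomal cadherin cluster of chromosome 18, with DSC1, DSG1, DSG4 and DSG3 between them in the RefSeq order. The sequences are the 250 bases before the start in the RefSeq promoter table for GRCh38.p14, 5′ to 3′ on the gene's own strand. They are chr18:31102422-31102671 on the minus strand for DSC2, chr18:31497927-31498176 on the plus strand for DSG2 and chr7:90403211-90403460 on the plus strand for CLDN12. DSC2 has 2 entries in the table, and the one farther upstream is shown. Capitals mark matches on either strand to CAGGTG, the E-box read by SNAI and ZEB repressors, to AACCNGTT, the GRHL motif, and to GGGCGG, the GC box.
DSC2: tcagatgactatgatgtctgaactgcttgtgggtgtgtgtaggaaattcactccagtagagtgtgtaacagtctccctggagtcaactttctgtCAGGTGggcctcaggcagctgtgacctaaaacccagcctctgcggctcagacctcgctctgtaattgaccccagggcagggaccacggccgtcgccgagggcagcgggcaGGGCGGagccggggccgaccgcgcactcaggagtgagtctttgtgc
DSG2: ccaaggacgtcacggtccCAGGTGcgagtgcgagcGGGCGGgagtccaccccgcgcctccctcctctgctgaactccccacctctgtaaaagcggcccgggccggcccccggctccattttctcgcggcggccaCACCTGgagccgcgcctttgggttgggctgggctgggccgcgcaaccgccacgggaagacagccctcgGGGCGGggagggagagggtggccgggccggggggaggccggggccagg
CLDN12: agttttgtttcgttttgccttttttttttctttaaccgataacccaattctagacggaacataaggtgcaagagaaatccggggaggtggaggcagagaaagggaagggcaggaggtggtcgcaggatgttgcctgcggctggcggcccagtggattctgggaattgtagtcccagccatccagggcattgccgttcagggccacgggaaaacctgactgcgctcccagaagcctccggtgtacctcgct

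The DSC2 window held 1 CAGGTG match and 1 GC box, the DSG2 window 2 and 2, and the CLDN12 window none of the 3 motifs. CAGGTG was found in 17.5% of all 35116 upstream windows of this length, GGGCGG in 42.6% and AACCNGTT in 1.49%. Among the 31 windows of the 19 members with an entry, 11 held CAGGTG, 23 held GGGCGG and 1 held AACCNGTT. No marked match overlaps another in the windows shown. G and C made up 59.6% of the DSC2 window, 75.2% of the DSG2 window and 54.4% of the CLDN12 window. These are letter matches, not sites of binding, and whether they bear on the changes was not tested.

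The arrays were alike. Their median intensities lay between 110.8 and 111.3 with exosomes and between 112.0 and 112.4 with PBS. Pearson's r across 18132 genes, which are not independent replicates, was 0.998 to 0.999 between any pair of arrays. Over the 39 member genes, log2 differences between 2 arrays had an SD of 0.085 within the exosome group and 0.11 within the PBS group, and 0.12 to 0.14 between groups. Beta-actin 3' to 5' ratios, which grow as RNA degrades, were 6.82 and 5.39 on the exosome arrays, against 5.74 and 7.17 on the PBS arrays. The same ratios for GAPDH were lower, at 1.35 and 1.34 with exosomes, against 1.32 and 1.33 with PBS. The exosome arrays read on average 0.14 higher on the log2 scale at the 24 probe sets for the poly-A spike-ins, RNAs put into each sample as controls. The mean log2 spike-in values were 6.94 and 7.02 on the exosome arrays, against 6.90 and 6.77 on the PBS arrays. The PBS arrays thus also differed from each other. With the arrays scaled to these spike-ins, the median over all genes was a log2 fold change of -0.15, in place of -0.01. On that scale 60 genes were higher and 328 lower, in place of 128 and 34.

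The cells carried the markers of their label. The 7 measured of 10 LNCaP luminal prostate markers were above the median probe set on every array, with summed intensities of 43226 and 44129 with exosomes, against 43506 and 43290 with PBS. Of 10 PC-3-type markers 8 were below the array median on every array, with sums of 1076 and 1112 with exosomes, against 1162 and 1137 with PBS. The RNA extraction protocol mentions brain tissue, although each sample is labelled LNCaP. The astrocyte and oligodendrocyte markers, 5 measured of 6, summed to 1442 and 1463 with exosomes, against 1302 and 1351 with PBS, and the 6 neuron markers to 727 and 709 with exosomes, against 733 and 797 with PBS. Only 2 of the 5 glial markers and 3 of the 6 neuron markers were below the array median on every array. Fibroblast markers, 6 of 6 below the array median, summed to 295 and 305 with exosomes, against 286 and 316 with PBS. The 6 leukocyte markers, 4 of them below the array median, summed to 520 and 521 with exosomes, against 515 and 530 with PBS. No marker in these lists passed limma's test (1 each of the LNCaP, PC-3-type, neuron, glial and fibroblast lists had an unadjusted p under 0.05). The lowest intensity on any array was 9.72, so the lack of values at 0 does not show that a marker was detected. The part of these markers in the results below was not tested.

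Across the 39 members the changes were small. The median log2 fold change was 0.04, against -0.01 for all genes, and the values ran from -0.29 for DSC2 to 0.31 for CLDN12. There were 26 members above 0 and 13 below, which became 6 and 33 on the spike-in scale, where the members' median was -0.10. At an unadjusted p under 0.05 the members counted 8 higher and 2 lower, and the shares over all genes were 5.76% and 5.16%. The members' median intensity was 719, against 195 for all genes, and their median SE 0.057, against 0.078. With only the 9066 genes at or above the median level tested, limma called 215 higher and 84 lower at the adjusted threshold. Among the 31 members in that fit it called 2 higher and 2 lower. The part of brightness in these counts was not tested. In 12 members both exosome arrays lay above both PBS arrays and in 4 both lay below, where all genes gave 17.8% and 21.9%. The brightest probe set stood for each gene, and for CLDN1, TJP3 and PARD3 even that was under the array median on every array.

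**Figure D1:**
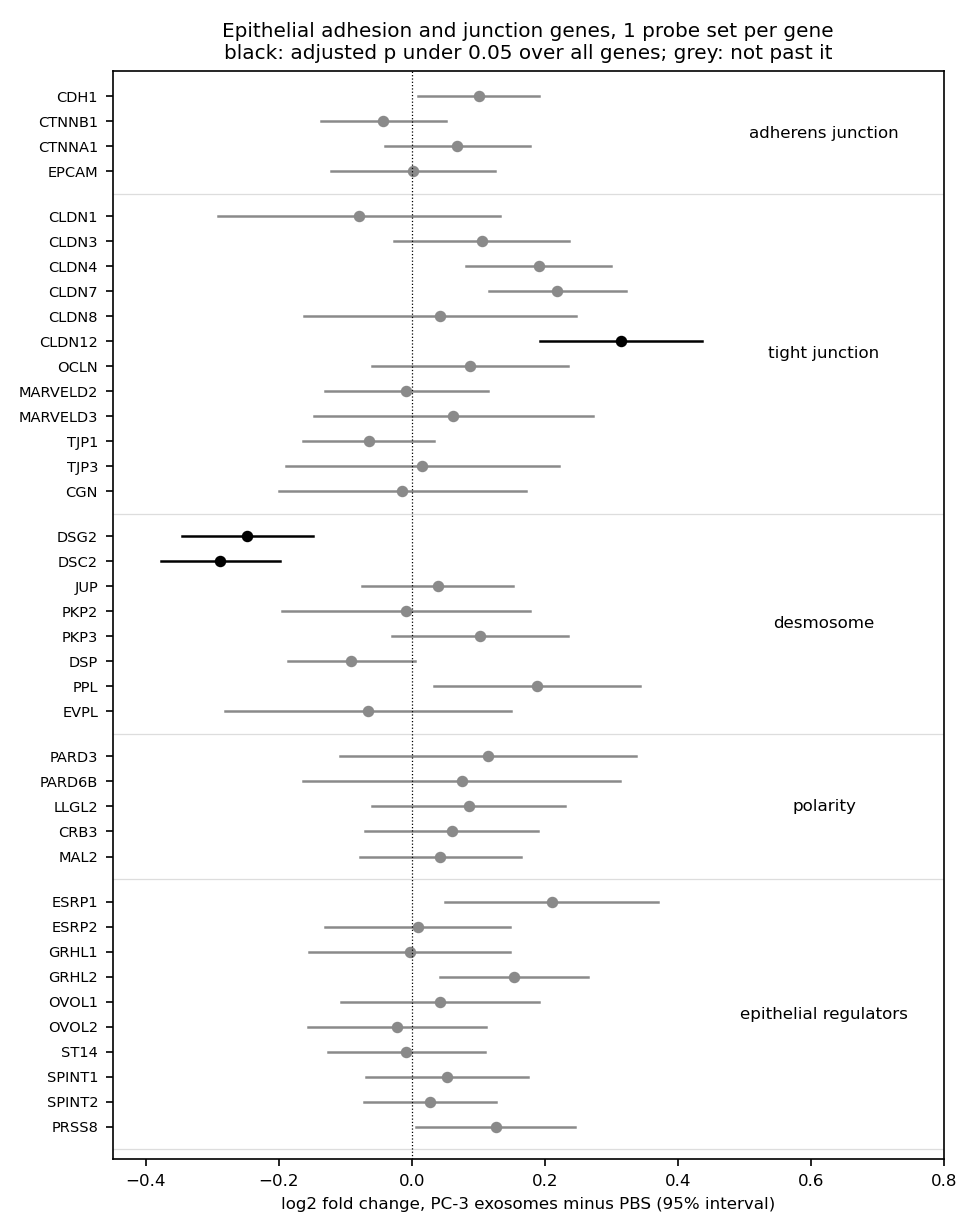
Log2 fold change of each of the 39 measured member genes, PC-3 exosomes minus PBS, with its 95% interval from the limma fit, grouped by structure from top to bottom. The 3 genes past the adjusted p threshold, CLDN12 above 0 and DSG2 and DSC2 below, are black, and the other 36 are grey.

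The desmosome held both members that fell. Of its 8 members 2 fell, 0 rose and 6 did not pass the test, and the median log2 fold change was -0.04. DSC2, a desmocollin whose outer part binds the desmoglein of the neighbouring cell, had intensities of 2803 and 2788 on the exosome arrays, against 3393 and 3434 on the PBS arrays. The exosome arrays were both the lower and did not overlap those with PBS. Its mean was 2795 ± 10.1 with exosomes, against 3413 ± 29.1 with PBS (n = 2 each, SD), a log2 fold change of -0.29 (SE 0.039, limma adjusted p = 0.0130). It passed the test on each normalization tried, and fell by 0.43 on the spike-in scale.

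DSG2, the desmoglein found in every desmosome-bearing tissue, had 2782 and 2935 on the exosome arrays, against 3357 and 3426 on the PBS arrays, again with the exosome arrays both lower and no overlap. The means were 2858 ± 108 with exosomes, against 3392 ± 48.6 with PBS (n = 2 each, SD), with a log2 fold change of -0.25 (SE 0.044, limma adjusted p = 0.0415), and -0.39 on the spike-in scale. In bulk cultures, fewer cells that express a gene and less of its RNA per cell cannot be told apart. Neither call was kept when any 1 of the 4 arrays was left out, exosome or PBS. Such a fit has 1 array in a group, and fewer genes were called in the whole table then too. The log2 fold changes then lay between -0.30 and -0.28 for DSC2, with adjusted p from 0.0868 to 0.198, and between -0.29 and -0.21 for DSG2, with adjusted p from 0.141 to 0.352.

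The probe sets of the cadherin pair differed in how far they bore out the gene's value. DSC2 had 6 probe sets, and in each of them both exosome arrays were below both PBS arrays. Over all single-gene probe sets that order was found in 20.5%. Their log2 fold changes ran from -0.53 to -0.27, and all 6 had an unadjusted p under 0.05. Of the 6 only the brightest passed the limma test over 44988 probe sets (adjusted p = 0.0492), in which 0.238% of all probe sets were called higher and 0.0200% lower. The probe set with the largest difference had 305 and 294 with exosomes, against 464 and 405 with PBS (log2 fold change -0.53, SE 0.081, limma adjusted p = 0.0660). Whether these probe sets share probes is not known, so they are not independent measurements.

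For DSG2 the brightest of 3 probe sets carried the difference, and the limma adjusted p over all probe sets was 0.117. A DSG2 probe set read 748 and 834 with exosomes, against 799 and 775 with PBS, a log2 fold change of 0.0045. The dimmest had 201 and 239 with exosomes, against 227 and 225 with PBS, a log2 fold change of -0.04. In these 2 probe sets the groups overlapped. Averaged over all its probe sets DSG2 had a log2 fold change of -0.10 (limma adjusted p = 0.678), whereas DSC2 had -0.34 and stayed past the threshold (adjusted p = 0.0347).

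**Figure D2:**
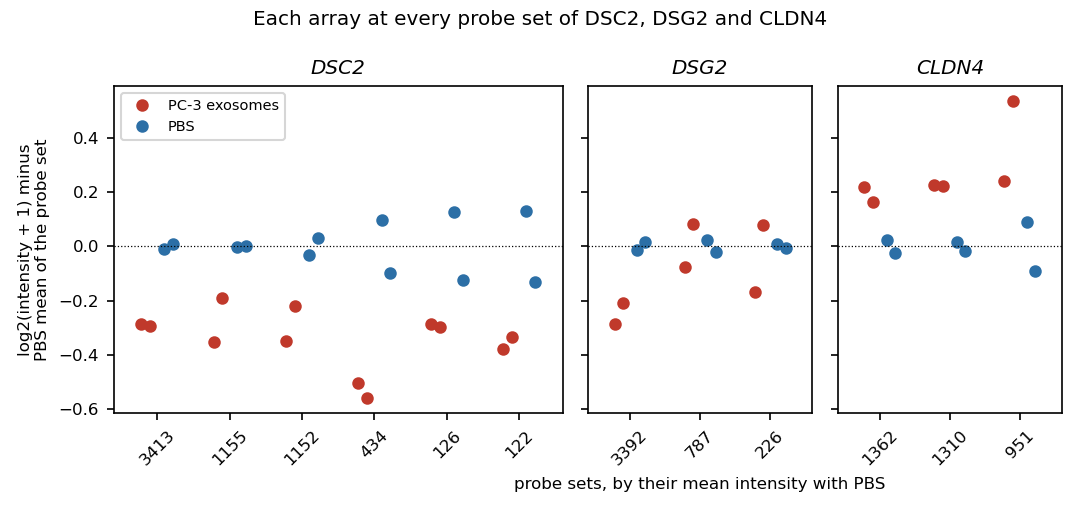
Each array at every probe set of DSC2 (6), DSG2 (3) and CLDN4 (3), as log2(intensity + 1) minus the probe set's mean with PBS, with exosome arrays in red at the left of each pair and PBS arrays in blue. The exosome points lie below the PBS points at all 6 DSC2 probe sets, above them at all 3 CLDN4 probe sets, and apart from them at only the brightest DSG2 probe set.

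In the plaque that anchors these cadherins 0 of 6 measured members passed limma's test, and the median log2 fold change was 0.015. An unadjusted p under 0.05 with a value above 0 was found in 1 member, where all genes gave 5.76%. Desmoplakin (DSP), which ties the plaque to keratin filaments, had 2519 and 2482 with exosomes, against 2625 and 2702 with PBS. Both exosome arrays were lower, and the log2 fold change was -0.09 (SE 0.042, 95% interval -0.19 to 0.0041, limma adjusted p = 0.477). The dimmer DSP probe set had 0.02, with overlapping groups. Plakoglobin (JUP), a catenin shared by desmosomes and adherens junctions, had a log2 fold change of 0.04 (95% interval -0.07 to 0.15). For the plakophilins, armadillo proteins of the plaque, PKP2 had -0.0087 (95% interval -0.19 to 0.18) and PKP3 0.10 (95% interval -0.03 to 0.23).

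Periplakin (PPL), a plakin of the desmosome and of the cornified envelope, had 244 and 248 with exosomes, against 214 and 218 with PBS. The exosome arrays were both higher, with a log2 fold change of 0.19 (SE 0.069, unadjusted p = 0.023, limma adjusted p = 0.339). That probe set was the brightest of 4. Those remaining had log2 fold changes of 0.10, -0.03 and -0.07. The gene had 0.05 on the spike-in scale and 0.05 as the mean of its probe sets. Envoplakin (EVPL), its partner, had -0.07 (95% interval -0.28 to 0.15).

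Among the 12 measured tight junction members 1 rose, 0 fell and 11 did not pass the test, with a median log2 fold change of 0.05. CLDN12, a claudin that lacks the PDZ-binding tail by which most claudins attach to ZO proteins, had 1105 and 1168 with exosomes, against 895 and 932 with PBS. Both exosome arrays were above both PBS arrays, and the means were 1136 ± 44.4 with exosomes, against 913 ± 26.1 with PBS (n = 2 each, SD). The log2 fold change was 0.31 (SE 0.054, limma adjusted p = 0.0358). Without any 1 of the 4 arrays the call was lost, at 0.27 to 0.35 and adjusted p from 0.146 to 0.455. On the spike-in scale it was 0.17 and not past the threshold (adjusted p = 0.215).

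The value for CLDN12 rested on the brighter of its 2 probe sets. The dimmer had 144 and 140 with exosomes, against 133 and 136 with PBS, a log2 fold change of 0.08, in the same direction and with no overlap of the groups. In the fit of all probe sets the brighter had a limma adjusted p of 0.111, and the mean of both gave a log2 fold change of 0.19 (adjusted p = 0.215).

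CLDN7 and CLDN4, claudins of most simple epithelia, came next without passing the test. CLDN7 had 2963 and 3045 with exosomes, against 2659 and 2506 with PBS, so that both exosome arrays were higher. Its log2 fold change was 0.22 (SE 0.046, limma adjusted p = 0.0765), and it passed the threshold with quantile normalization (adjusted p = 0.0358), with each array centred on its median (adjusted p = 0.0453) or with dim genes left out. CLDN4, a receptor for a Clostridium toxin as is CLDN3, had 1585 and 1525 with exosomes, against 1385 and 1340 with PBS. Its log2 fold change was 0.19 (SE 0.048, unadjusted p = 0.0034, limma adjusted p = 0.154).

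CLDN4 was measured by 3 probe sets, and in each both exosome arrays lay above both PBS arrays, an order found in 17.2% of all probe sets. Their log2 fold changes were 0.19, 0.22 and 0.39, with limma adjusted p between 0.187 and 0.307. CLDN3 had 738 and 753 with exosomes, against 718 and 669 with PBS, a log2 fold change of 0.10 (95% interval -0.03 to 0.24). On the spike-in scale the values were 0.08 for CLDN7, 0.05 for CLDN4 and -0.03 for CLDN3. The last 2 claudins, CLDN8 and CLDN1, had 0.04 (95% interval -0.16 to 0.25) and -0.08 (95% interval -0.29 to 0.13). The groups overlapped in both at the brightest probe set. A dimmer CLDN1 probe set had 0.05 with both exosome arrays higher.

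**Figure D3:**
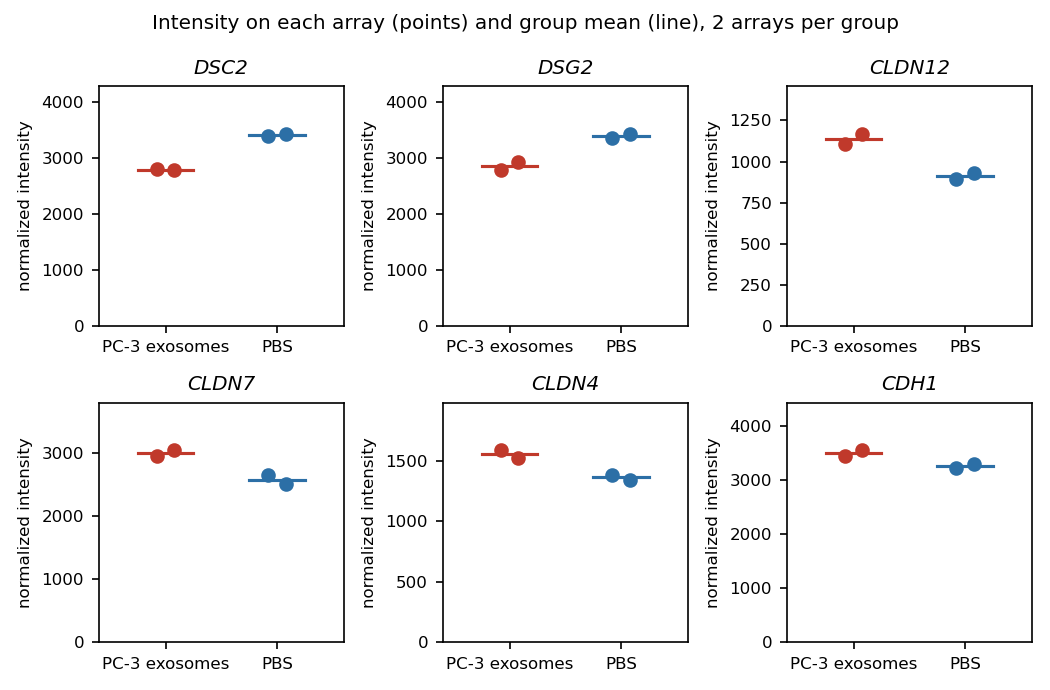
Normalized intensity of DSC2, DSG2, CLDN12, CLDN7, CLDN4 and CDH1 on each array, exosome arrays in red at the left and PBS arrays in blue, with the group mean as a line and each axis starting at 0. In all 6 genes the groups do not overlap, and the differences are small beside the level itself, as with 2803 and 2788 with exosomes against 3393 and 3434 with PBS for DSC2.

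The other strand and plaque proteins of the tight junction did not pass the test. Occludin (OCLN), a strand protein that crosses the membrane several times, had 444 and 452 with exosomes, against 439 and 405 with PBS. The exosome arrays were just above the others, with a log2 fold change of 0.09 (SE 0.065, 95% interval -0.06 to 0.24, limma adjusted p = 0.692), and its dimmer probe set had 0.23 (adjusted p = 0.603). ZO-1 (TJP1), the scaffold that links strands to actin, had 2115 and 2134 with exosomes, against 2261 and 2184 with PBS. Here both exosome arrays were lower, with a log2 fold change of -0.06 (SE 0.044, 95% interval -0.16 to 0.03, limma adjusted p = 0.653). The dimmer TJP1 probe set had 0.02, with overlapping groups. ZO-3 (TJP3) had 0.02 and cingulin (CGN), a cytoplasmic plaque protein, -0.01. Tricellulin (MARVELD2), found where 3 cells meet, had -0.0081 and its relative MARVELD3 0.06. At the brightest probe set of these 4 genes the groups overlapped. A dimmer MARVELD3 probe set had 0.22 with both exosome arrays higher, and a dimmer MARVELD2 probe set -0.09 with both lower. The dimmest of CGN had -0.24, with overlapping groups.

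In the adherens junction 0 of 4 measured members passed the limma test. With a value above 0, 1 member had an unadjusted p under 0.05, where all genes gave 5.76%. That member was CDH1, which encodes E-cadherin. It had 3451 and 3548 with exosomes, against 3233 and 3294 with PBS, so that the exosome arrays were both higher. The log2 fold change was 0.10 (SE 0.040, 95% interval 0.0097 to 0.19, limma adjusted p = 0.400), and -0.04 on the spike-in scale. Its dimmer probe set had 0.03, with overlapping groups.

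EpCAM (EPCAM), a homophilic adhesion molecule of epithelial cells that works apart from cadherins, had 3175 and 3316 with exosomes, against 3075 and 3415 with PBS. The exosome arrays lay between the PBS arrays, and the log2 fold change was 0.0018 (95% interval -0.12 to 0.13). Beta-catenin (CTNNB1), which binds the tail of E-cadherin and also carries Wnt signals to the nucleus, had 5155 and 5129 with exosomes, against 5130 and 5467 with PBS. The groups overlapped in each of its 8 probe sets, whose log2 fold changes ran from -0.04 to 0.16. Alpha-catenin (CTNNA1), the link to actin, had 3408 and 3677 with exosomes, against 3448 and 3305 with PBS, a log2 fold change of 0.07 (95% interval -0.04 to 0.18). Of its 7 probe sets 6 were above 0, up to 0.14 (unadjusted p = 0.031), and the dimmest, near the lowest intensities of the array at 12.5 on both arrays with exosomes, against 13.1 and 13.2 with PBS, had -0.06.

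At the brightest probe set the 5 polarity members were all above 0, between 0.04 and 0.11, as were 7979 of all 18132 genes. Of the 5, 0 passed limma's test or had an unadjusted p under 0.05. On the spike-in scale all 5 were below 0. As the mean of probe sets PARD3 had -0.0037, PARD6B -0.06 and LLGL2 -0.0031, while CRB3 had 0.05 and MAL2 0.07. PARD3, the scaffold of the PAR complex, had 80.4 and 82.0 with exosomes, against 81.4 and 68.9 with PBS, and the groups overlapped. Its log2 fold change was 0.11 (95% interval -0.11 to 0.34), and its 4 probe sets divided into 2 above 0 and 2 below. The lowest of them had 37.2 and 36.4 with exosomes, against 41.9 and 42.3 with PBS, a log2 fold change of -0.19 (unadjusted p = 0.048, limma adjusted p = 0.560). LLGL2, which marks the basolateral side, had 451 and 459 with exosomes, against 446 and 413 with PBS. There the exosome arrays were just higher, with 0.09 (95% interval -0.06 to 0.23). PARD6B, the adaptor of atypical protein kinase C, had 0.08, the apical determinant CRB3 0.06, and MAL2, a protein of apical transcytosis, 0.04. The groups overlapped in all 3 at the brightest probe set. A dimmer PARD6B probe set had -0.20 with both exosome arrays lower. Dimmer probe sets of CRB3 and MAL2 had 0.05 and 0.09 with both higher.

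Of the 10 regulators of the epithelial state 0 passed limma's test, and 3 had an unadjusted p under 0.05 with a value above 0, where all genes gave 5.76%. ESRP1, a splicing factor that gives epithelial transcript forms, had 656 and 746 with exosomes, against 591 and 618 with PBS. Both exosome arrays were higher, with a log2 fold change of 0.21 (SE 0.071, limma adjusted p = 0.299). It was 0.07 on the spike-in scale and 0.12 without exosome replicate 2. Its dimmer probe set had 0.12, again with no overlap. Its paralogue ESRP2 had 0.0086 (95% interval -0.13 to 0.15).

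GRHL2, a grainyhead factor that activates CDH1 and claudin genes, had 1239 and 1197 with exosomes, against 1103 and 1085 with PBS, with the exosome arrays higher. The log2 fold change was 0.15 (SE 0.049, limma adjusted p = 0.271), but 0.015 on the spike-in scale and 0.05 as the mean of its probe sets. A further probe set had 0.15 (unadjusted p = 0.042), and the 3 dimmest of its 5 had 0.10, -0.06 and -0.08 with overlapping groups. GRHL1 had -0.0034 (95% interval -0.15 to 0.15). OVOL1 and OVOL2, zinc finger repressors of mesenchymal genes, had 0.04 (95% interval -0.11 to 0.19) and -0.02 (95% interval -0.16 to 0.11).

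Prostasin (PRSS8), a membrane-anchored serine protease of epithelia, had 736 and 740 with exosomes, against 681 and 671 with PBS. The groups did not overlap, and the log2 fold change was 0.13 (SE 0.053, limma adjusted p = 0.424). All 5 PRSS8 probe sets were above 0, from 0.06 to 0.21. In 4 of them the exosome arrays were above those with PBS, an order found in 17.2% of all probe sets. On the spike-in scale the gene had -0.01. Matriptase (ST14), which works with prostasin in a protease cascade, had -0.0081 (95% interval -0.13 to 0.11). The Kunitz-type inhibitors of that cascade, SPINT1 and SPINT2, had 0.05 (95% interval -0.07 to 0.17) and 0.03 (95% interval -0.07 to 0.13).

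**Figure D4:**
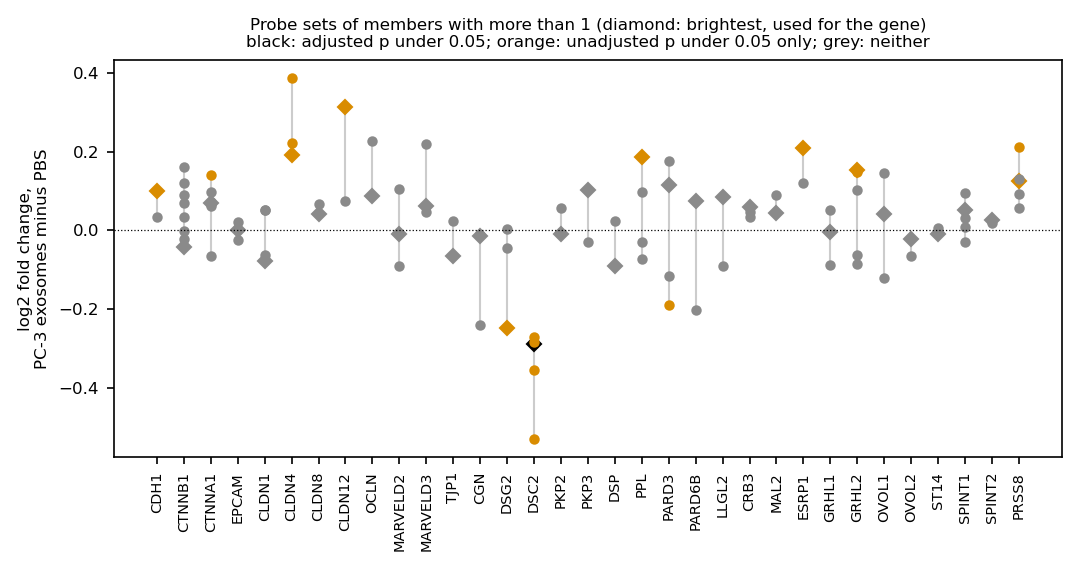
Log2 fold change, PC-3 exosomes minus PBS, of each probe set of the 33 members that have more than 1, with a diamond for the brightest, which stood for the gene. All 6 DSC2 probe sets are below 0 and 1 of them, in black, is past the adjusted threshold, while most other genes scatter about 0.

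Taking every probe set separately, 0 of the 111 member probe sets were higher and 1 was lower by limma at the adjusted threshold, and 13 and 8 had an unadjusted p under 0.05. Over all probe sets the unadjusted shares were 4.73% and 4.14%. Of the 8 lower ones 6 belonged to DSC2, 1 to DSG2 and 1 to PARD3. Of the 33 genes with more than 1 probe set, 14 had all of them on the same side of 0, 11 above it and 3 below. The 3 below were DSC2, CGN and OVOL2. How many of all 11734 genes with more than 1 probe set had them on the same side was not counted.

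A wider list of 103 genes of the same structures and of gap junctions, of which 95 were measured, held 0 genes past limma's threshold and had a median log2 fold change of -0.01. At an unadjusted p under 0.05 it counted 5 higher and 5 lower of 95, near the 5.76% and 5.16% of all genes. For the adherens junction the smallest p belonged to vinculin (VCL), which strengthens the link to actin, with a log2 fold change of 0.10, and next to N-cadherin (CDH2), with -0.14. For tight junctions it belonged to LSR, a protein of tricellular contacts, with 0.16, and next to its relative ILDR1, with -0.20. The polarity genes PATJ and LIN7C, of the Crumbs complex, had 0.17 and 0.14. ELF5, an epithelial transcription factor, and TWIST1, a driver of mesenchymal change, had -0.23 and -0.16, and the connexins GJA1 and GJD3 had 0.13 and -0.10. Their limma adjusted p lay between 0.322 and 0.732.

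The remaining desmosome genes were mostly below 0, in 8 of 9 measured, and 0 of 9 passed limma's test, with a median of -0.09. Over all genes 10153 of 18132 were below 0. The 9 genes were mostly dim, with a median intensity of 59.9. DSC1 had 55.7 and 54.0 with exosomes, against 62.6 and 67.4 with PBS, with both exosome arrays lower and a log2 fold change of -0.24 (SE 0.086, limma adjusted p = 0.331). DSG4 had 38.6 and 32.8 with exosomes, against 39.3 and 45.4 with PBS, a log2 fold change of -0.24 (SE 0.11, limma adjusted p = 0.460). DSG1, DSG3 and DSC3, named after their values were seen because they lie in the same gene cluster, had -0.03, -0.03 and -0.13, at intensities under the array median in both groups. Their limma adjusted p lay between 0.637 and 0.965.

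The 3 called genes were also set against the choices of processing. DSC2 stayed past the threshold with quantile normalization, either centring, a pseudocount of 16, both filters on dim genes, robust eBayes and the mean of probe sets. It was lost with eBayes without a trend (adjusted p = 0.224) and, as given above, without any 1 array. With the replicate number as a block, DSC2 was lost as well (limma adjusted p = 0.160). DSG2 and CLDN12 were lost in each of these fits and with the mean of probe sets, and CLDN12 also on the spike-in scale. The sign of these 3 genes was the same in each setting tried.

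**Figure D5:**
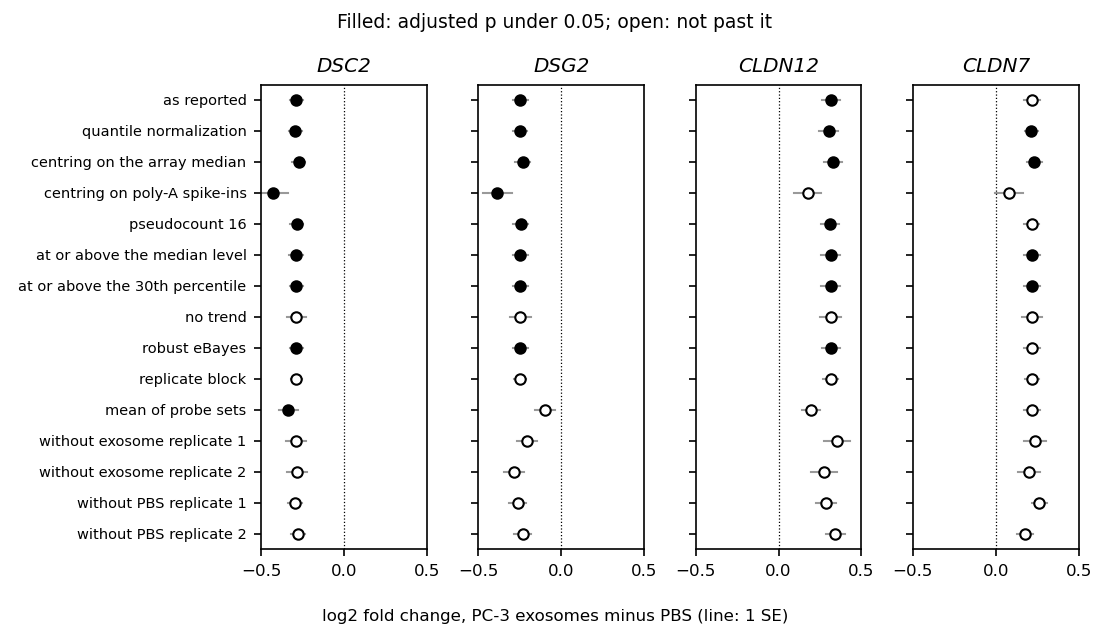
Log2 fold change of DSC2, DSG2, CLDN12 and CLDN7, PC-3 exosomes minus PBS, with 1 SE, under each processing setting from top to bottom, filled where the adjusted p is under 0.05. The sign stays the same in all 4 genes, while every point is open once an array is left out.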

How the data were processed

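The authors deposited normalized probe set intensities on a linear scale. MAS5 and RMA are listed, per the submitters' processing notes, with no role or version, and no array annotation version is stated. A pseudocount of 1 was added before log2, and nothing else was normalized. Of 49395 probe sets 102 were controls, 44988 named 1 gene, 1832 several and 2473 none, and only those naming 1 gene were tested. Genes were named through the platform annotation. The probe set with the highest mean stood for each of 18132 genes.

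The test was limma (version 3.58.1, R 4.3.3), with lmFit and trended eBayes, on exosome minus PBS arrays, once over genes and once over all 44988 probe sets. It was two-sided, with Benjamini-Hochberg adjustment and a threshold of 0.05. The fits had 2 residual degrees of freedom and 7.0 and 5.7 prior ones. With 2 arrays a group, exact permutation reaches no p under 0.333 (two-sided), so each p rests on the variance model. The number of arrays limits the precision. The scripts were tested on simulated data.

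All 41 members were named. Values on every array were given for members with an unadjusted p under 0.05 or a called probe set, the 2 per structure with the largest change, and CDH1, EPCAM, OCLN, TJP1, DSP and CTNNB1. Of the wider list the 2 genes per structure with the smallest p were named. The members, lists and tests were chosen with earlier results of these data known. Alternatives were other normalizations, a pseudocount of 16, filters at the median and the 30th percentile, other variance models, a threshold of 0.10, the mean of probe sets, the replicate number as a block, and each array left out, where the lone array is assumed to vary like the other group. Promoter windows came from RefSeq (GRCh38.p14). Figures used matplotlib 3.10.9.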

Additional observations from a re-analysis of the deposited data

How the results depend on the processing

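Over all genes 128 were called higher and 34 lower as reported. Those counts were 179 and 67 under quantile normalization, 180 and 36 with centring on the array median and 203 and 69 at threshold 0.10. They were 215 and 84 of 9066 genes with the filter at the median, and 177 and 57 of 12692 at the 30th percentile. With the poly-A spike-ins they were 60 and 328, without a trend 18 and 3, and with the mean of probe sets 102 and 26. The count of member genes higher was 1 as reported. It was 2, with CLDN7 added, under quantile normalization, centring on the array median, both filters on dim genes and a threshold of 0.10. It was 0 with the poly-A spike-ins, without a trend, with the mean of probe sets and with the replicate number as a block. The count of member genes lower, 2 as reported, was 0 without a trend and with the block, and 1 with the mean of probe sets. Without any 1 array both counts were 0 to 0. Member probe sets lower, 1 as reported, were 2 under quantile normalization, both filters and a threshold of 0.10, 6 with the spike-ins, and 0 with a pseudocount of 16, without a trend and with the block. Without any 1 array they were 0 to 0. Of the 95 measured genes of the wider list 2, PERP and TWIST1, were lower on the spike-in scale, where none was as reported. On that scale 328 of all 18132 genes were lower, in place of 34.

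The median log2 fold change of the members, 0.04 as reported, was -0.10 with the spike-ins and 0.0061 to 0.087 with an array left out, the highest without PBS replicate 1. The replicate numbers are not explained in the labels, and the differences between replicates 1 and 2 correlated at -0.04 between the groups across genes, so the arrays share only a number. With the replicate number as a block 2 of 18132 genes were called higher and 0 lower, against 128 and 34, and the adjusted p was 0.160 for DSC2 and 0.186 for DSG2 and CLDN12.

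No value that passed the test changed sign. Among members that did not pass it, the log2 fold change took the other sign with the spike-ins in CDH1 -0.039, CTNNA1 -0.071, EPCAM -0.14, CLDN3 -0.035, CLDN8 -0.10, OCLN -0.052, MARVELD3 -0.077, TJP3 -0.12, JUP -0.10, PKP3 -0.038, PARD3 -0.025, PARD6B -0.065, LLGL2 -0.054, CRB3 -0.080, MAL2 -0.10, ESRP2 -0.13, OVOL1 -0.10, SPINT1 -0.087, SPINT2 -0.11 and PRSS8 -0.013. It did so on centring to the array median in MARVELD2 0.0065, CGN 0.00012, PKP2 0.0059, GRHL1 0.011 and ST14 0.0065, under quantile normalization in PKP2 0.0021 and ESRP2 -0.0069 and with the mean of probe sets in CTNNB1 0.051, EPCAM -0.00068, MARVELD2 0.0024, PKP2 0.024, PARD3 -0.0037, PARD6B -0.064 and LLGL2 -0.0031. With an array left out the ranges that crossed 0 were CGN -0.085 to 0.056, CLDN1 -0.17 to 0.012, CLDN8 -0.067 to 0.15, CTNNB1 -0.088 to 0.0031, EPCAM -0.074 to 0.077, ESRP2 -0.078 to 0.095, EVPL -0.18 to 0.051, GRHL1 -0.045 to 0.038, MAL2 -0.011 to 0.10, MARVELD2 -0.032 to 0.016, MARVELD3 -0.036 to 0.16, OVOL1 -0.012 to 0.10, OVOL2 -0.056 to 0.012, PARD3 -0.0036 to 0.23, PARD6B -0.087 to 0.24, PKP2 -0.063 to 0.046, SPINT2 -0.020 to 0.075, ST14 -0.043 to 0.027 and TJP3 -0.057 to 0.089. The cause of these changes was not tested. The number of arrays, 2 per group, limits all results.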

Other observations

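Probe sets that name a member together with another gene were outside the comparison, and 7 were found. In a limma fit of all non-control probe sets 0 of the 7 passed the adjusted threshold, and 1 had an unadjusted p under 0.05. p120-catenin (CTNND1), which keeps E-cadherin at the cell surface, was measured by 5 probe sets shared with the readthrough transcript TMX2-CTNND1. The first had 436 and 445 with exosomes, against 398 and 398 with PBS, with both exosome arrays higher and a log2 fold change of 0.14 (SE 0.0607, unadjusted p = 0.0456, limma adjusted p = 0.556). The remaining 4 CTNND1 probe sets had log2 fold changes of -0.12 to 0.01 and overlapping groups. A probe set naming CLDN12 with GTPBP10 and a further locus had 836 and 747 with exosomes, against 720 and 755 with PBS, a log2 fold change of 0.10 with overlapping groups. A probe set naming OCLN with its pseudogene OCLNP1 had 0.02.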
